A study of Mus musculus with 8 samples.

Results

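Oxidative phosphorylation is carried out by 5 protein complexes of the mitochondrial inner membrane, and the genes for their subunits were followed here in whole-liver RNA of mice lacking Bgn, which encodes biglycan, a small leucine-rich proteoglycan of the extracellular matrix. Members were taken by name alone, without use of any measured value: symbols beginning with Ndufa, Ndufb, Ndufc, Ndufs or Ndufv, with Uqcr, with Atp5 or with Cox followed by a digit from 4 to 8, the Sdh subunit genes, Cyc1 and Cycs. They came to 110 of the 25697 probes and 87 of the 16593 named genes on the array. Of these genes, 80 encode subunits or cytochrome c, and 7 share only the name, namely Ndufaf1, Ndufaf3, Ndufaf4, Ndufaf5 and Ndufaf7 (assembly factors), Cox7a2l (a supercomplex factor) and Ndufs5-ps (a pseudogene). Ndufa4 was counted with complex IV, of which its product is now known to be a subunit. Subunits encoded by mitochondrial DNA were not analysed here.

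The groups were 4 wild type and 4 Bgn knockout mice, all males of 13 weeks on a C57BL/6 background, fed a standard chow without restriction under equal periods of light and dark. Each liver was hybridised to 1 single-colour Illumina bead array. Neither the part of Bgn removed, nor the origin of the wild type mice, nor the time of day of dissection is stated in the sources used here. The question put to these arrays is how loss of Bgn changes the liver transcriptome of young adult males. Arrays had median deposited signals of 141 to 164 intensity units and 11352 to 11910 detected probes, and their number limits the precision. Of the hepatocyte markers, Apoa1, Ttr and Cps1 were bright on each array, the Alb probe was dim (mean log2 intensity 7.49), and Fgb and Tat were each detected on 2 arrays. Bgn itself was lower on each of the 4 knockout arrays (log2 change -5.87, SE 0.14, limma adjusted p = 2.34e-10, exact two-sided permutation p = 0.0286, the smallest that 70 assignments allow). On 3 arrays, wild type replicate 4 and Bgn knockout replicates 1 and 2, skeletal muscle transcripts were also detected, and results that touch them are given with and without those arrays.

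Complexes I and II pass electrons from NADH and succinate to ubiquinone, complex III passes them to cytochrome c, and complex IV, cytochrome c oxidase, hands them to oxygen. Complexes I, III and IV pump protons, and the proton gradient drives complex V, the ATP synthase. Hepatocytes are rich in mitochondria and use this ATP for the synthesis of glucose, urea and plasma proteins. Most subunits are encoded in the nucleus, and many of their promoters carry sites for the factors NRF1 and GABP.

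No subunit gene passed the threshold between the genotypes, and most subunits differed little. Among 71 subunit genes with a tested probe, the median log2 change (knockout minus wild type) was 0.061, against -0.0029 over all 8105 genes, and 53 of the 71 (74.6%) lay above 0, against 49.5% of all genes. The 53 include the muscle isoforms Cox8b and Cox7a1, which were high on arrays with muscle transcripts. With median scaling 42 of the 71 lay above 0, and with cyclic loess 47. The members with the largest values, relative to their error, were Cox7b of complex IV, Atp5a1 of complex V and Uqcrb of complex III. All 3 tested subunits of complex II, the succinate dehydrogenase, lay above 0 by 0.21 to 0.43. A probe was tested where it was detected on at least 4 of the 8 arrays, which held for 94 of the 110 member probes, 92 of them detected on all 8. In whole-organ RNA, fewer cells of a type and less RNA per cell cannot be told apart.

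By limma with Benjamini-Hochberg adjustment over all 11494 tested probes, 0 of the 94 member probes had an adjusted p under 0.05, where 1.1% of all tested probes did. The smallest adjusted p of a member was 0.0848, for Cox7b. At an unadjusted p under 0.05, 17 member probes (18.1%) were higher in the knockout, beside 6.33% of all tested probes, and 1 (1.06%) was lower, beside 7% of all. The 4 knockout arrays lay wholly above the 4 wild type arrays for 10 member probes (10.6%, beside 3.66% of all) and wholly below for 1 (beside 4.4%). With 1 probe a gene, the brightest tested, 12 subunit genes were higher at an unadjusted p under 0.05 and 0 were lower (limma; 6.14% and 7.37% of all genes). The groups did not overlap for 8 subunit genes higher in the knockout and 1 lower, beside 3.87% and 4.79% of all genes. Genes of 1 pathway vary together and are not independent replicates, so these counts describe the members and were given no test of their own.

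**Figure D1:**
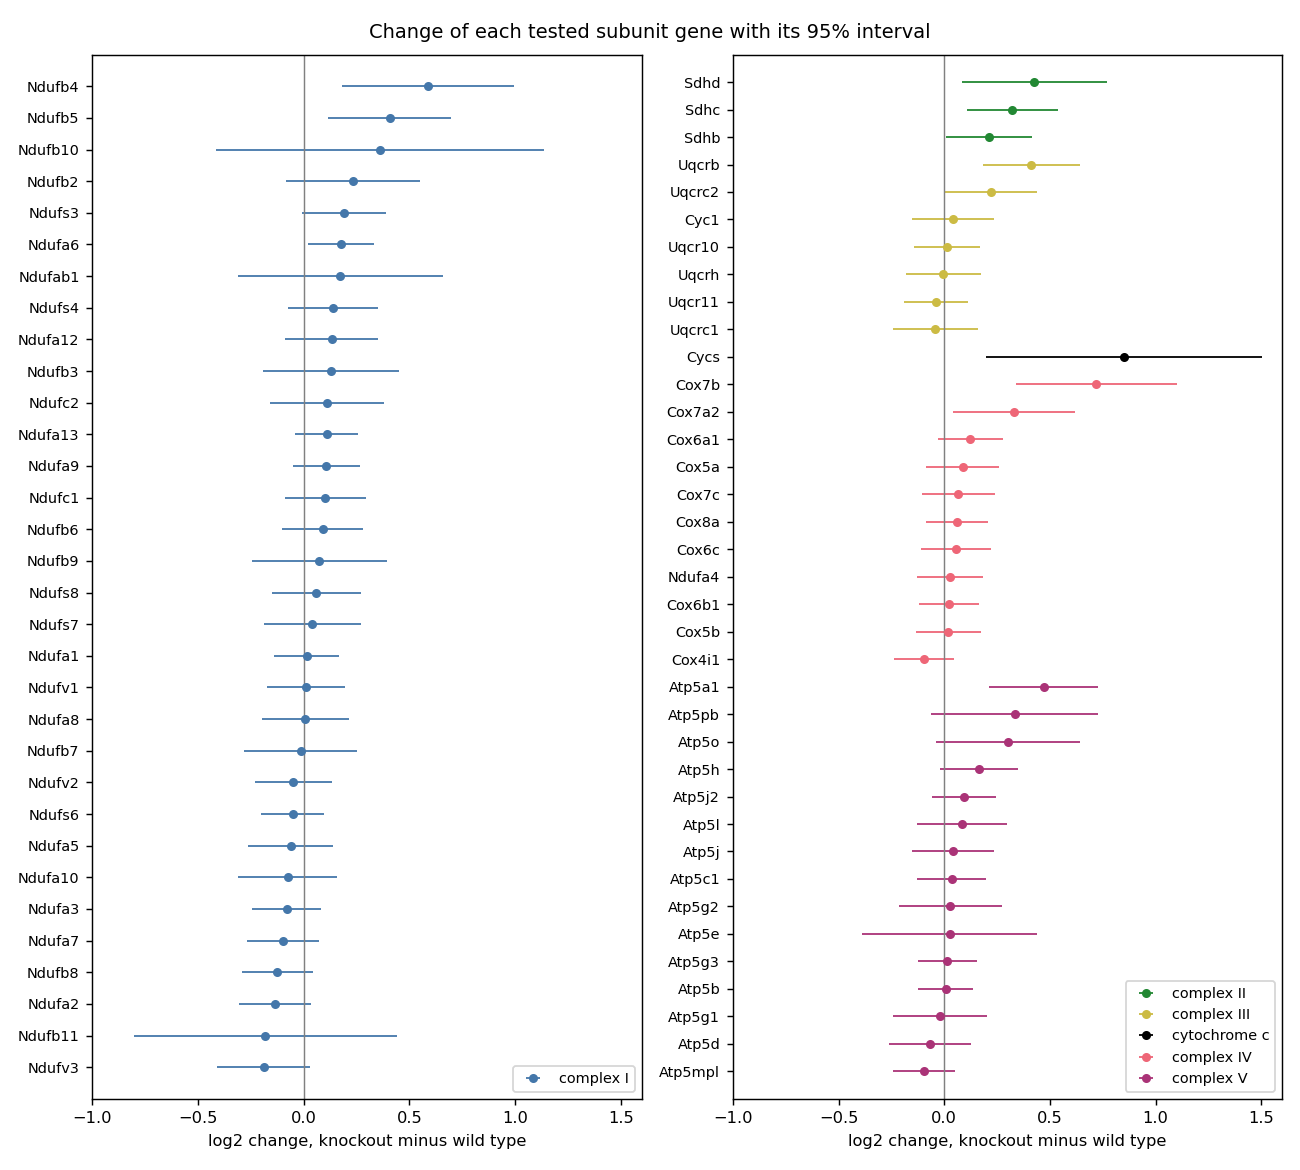
Log2 change, knockout minus wild type, of each tested subunit gene on its brightest probe (points) with its 95% interval from the limma fit (lines), complex I on the left and the other complexes and cytochrome c on the right. Cox7a1 and Cox8b are left out because their intervals are several times wider. The 3 points of complex II lie to the right of 0, while the points of complex I run from -0.19 to 0.59.

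The subunits were measured with a median SD within a group of 0.125 on the log2 scale, against 0.232 over all genes. Their probes were brighter than most (median log2 intensity 12.87, against 8.16), and all genes split at the same signal cuts had SDs closer to theirs. For subunits split by probe signal into a dim, a middle and a bright range, the median SDs were 0.225, 0.119 and 0.079. They were 0.240, 0.143 and 0.103 for all genes split at the same cuts. The dim and bright sets of all genes include genes dimmer or brighter than any subunit. The 95% interval of the change lay wholly between -0.5 and 0.5 for 54 of the 71 subunit genes (76.1%), against 41.3% of all genes. For these 54 the data hold no change as large as 0.5 in either direction within the interval of the brightest probe. Other probes of the same gene can differ. The dimmer Ndufa5 probe had a log2 change of 0.50 with an interval of 0.13 to 0.87. Atp5b, the catalytic beta subunit of the ATP synthase, had a log2 change of 0.0064 with an SE of 0.061.

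The median deviation of all subunits from their own mean over the arrays was -0.048, 0.0084, -0.084 and -0.040 on wild type replicates 1 to 4. On Bgn knockout replicates 1 to 4 it was 0.045, 0.039, 0.036 and 0.031. The groups did not overlap, and the gap between the wild type array nearest to the knockouts, replicate 2, and the lowest knockout array was smaller than the range of the wild type arrays. After median scaling in place of quantile normalization the deviations were -0.053, 0.026, -0.012 and -0.033 in wild type and 0.091, 0.020, 0.067 and -0.081 in the knockout, so that the groups overlapped, with Bgn knockout replicate 4 lowest of all. With that scaling the median log2 change of the subunits was 0.054 and that of all genes 0.029.

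Complex I, the NADH dehydrogenase, is the largest of the complexes, with core subunits that carry flavin, iron-sulfur clusters and proton channels and a larger number of accessory subunits around them. Of its 33 nuclear genes on the array 32 were tested. The median log2 change was 0.067, 21 genes lay above 0 and 11 below, 3 (9.38%) were higher and 0 lower at an unadjusted p under 0.05, and the smallest adjusted p was 0.199. That share is near the 6.14% of all genes. Ndufs1, a core subunit that carries iron-sulfur clusters, was not tested, since its probe was below detection on all arrays.

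The 3 genes of complex I with the smallest p were Ndufb4, Ndufb5 and Ndufa6, all accessory subunits, the first 2 in the membrane arm. Ndufb4 had log2 intensities of 6.83, 7.19, 6.87 and 7.15 in wild type and 7.17, 7.55, 7.90 and 7.78 in knockout livers. A single knockout array lay just below the highest wild type array, and the other 3 lay above all wild type arrays. The log2 change of Ndufb4 was 0.59 (SE 0.19; limma adjusted p = 0.199), and it was 0.33 without background correction. Ndufb5 had 9.17, 9.53, 9.41 and 9.78 in wild type and 9.95, 9.88, 9.90 and 9.79 in knockout livers. Its knockout arrays were close together and lay above the 4 wild type arrays, by a narrow margin over wild type replicate 4. For Ndufb5 the log2 change was 0.41 (SE 0.13; limma adjusted p = 0.213). Ndufa6, which binds the mitochondrial acyl carrier protein within complex I, had 13.46, 13.45, 13.32 and 13.29 in wild type and 13.57, 13.57, 13.57 and 13.51 in knockout livers. The groups of Ndufa6 did not overlap, and the log2 change was 0.18 (SE 0.071; limma adjusted p = 0.317).

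**Figure D2:**
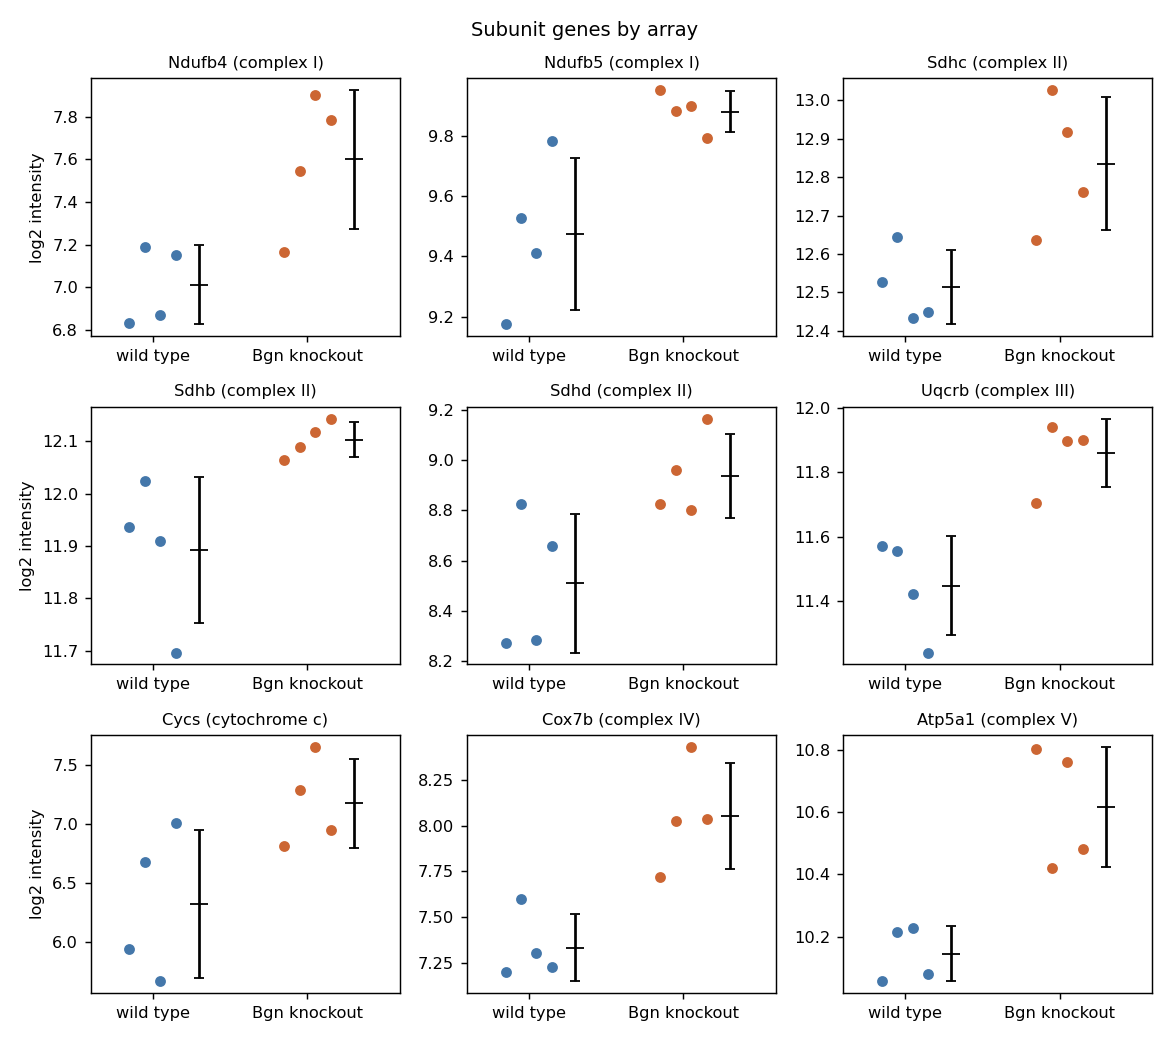
Log2 intensity of 9 subunit genes on each array (points; wild type blue, Bgn knockout orange; points within a group are replicates 1 to 4 from left to right), with the mean and SD of each group beside them (black, n = 4). The axes differ between panels and do not start at 0. The groups do not overlap for Ndufb5, Sdhb, Uqcrb, Cox7b and Atp5a1, and they overlap for Ndufb4, Sdhc, Sdhd and Cycs.

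Ndufs4, an accessory subunit of the matrix arm whose loss in mice gives a fatal encephalopathy, was measured by 4 probes. Their log2 changes, from the brightest probe to the dimmest, were 0.14, 0.15, 0.27 and 0.35. All 4 lay above 0, none passed (limma adjusted p = 0.569, 0.474, 0.308 and 0.246), and the groups were apart on the second probe only. Its values there were 11.49, 11.59, 11.54 and 11.43 in wild type and 11.72, 11.68, 11.65 and 11.63 in knockout livers. The remaining subunits of complex I included some with values below 0. Ndufa7, an accessory subunit singled out after its values were seen as the 1 subunit gene whose knockout arrays all lay below wild type, had 12.56, 12.52, 12.50 and 12.50 against 12.34, 12.46, 12.49 and 12.41. Ndufa7 had a log2 change of -0.098 (SE 0.077; limma adjusted p = 0.623). The 1 member probe lower at an unadjusted p under 0.05, likewise named after its values were seen, was the dimmer probe of Ndufb11 in the membrane arm (log2 change -0.44, limma adjusted p = 0.358), which was detected on 2 of the 4 knockout arrays.

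Complex II oxidises succinate to fumarate and so belongs to the citric acid cycle as well. Its subunits are all encoded in the nucleus, and Sdhb (the iron-sulfur subunit) and the membrane anchors Sdhc and Sdhd were measured. Sdha, the remaining subunit, had no probe named for it. The median log2 change of the 3 was 0.32, the highest of the complexes. All 3 were higher at an unadjusted p under 0.05 (limma; 6.14% of all genes), while the smallest adjusted p was 0.182. Their median probe signal (log2 intensity 12.00) was the lowest of the complexes, the others having 12.49 to 13.69, and dimmer subunits had higher changes. Sdhc, at 12.67, lay in the middle range of signal, where the median log2 change was 0.041. Complex V, at 12.49, had a median log2 change of 0.035. The part of probe signal in the values of complex II was not tested. The median deviation of the 3 genes was -0.15, 0.027, -0.24 and -0.22 on the wild type arrays and 0.067, 0.24, 0.12 and 0.15 on the knockout arrays. Wild type replicate 2 was the highest wild type array and lay below every knockout array. A median over 3 genes rests on few values, and the difference from the other complexes was not tested.

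Sdhc had log2 intensities of 12.53, 12.64, 12.43 and 12.45 in wild type and 12.64, 13.03, 12.92 and 12.76 in knockout livers. The groups met at 12.64, wild type replicate 2 and Bgn knockout replicate 1, and were otherwise apart. The log2 change of Sdhc was 0.32 (SE 0.0995; 1.25-fold; limma adjusted p = 0.182). Sdhd had 8.27, 8.83, 8.29 and 8.66 in wild type and 8.83, 8.96, 8.80 and 9.16 in knockout livers. Only wild type replicate 2 reached the range of the knockout arrays, and the log2 change of Sdhd was 0.43 (SE 0.16; limma adjusted p = 0.271). Sdhb had 11.94, 12.02, 11.91 and 11.70 on its brightest probe in wild type and 12.06, 12.09, 12.12 and 12.14 in knockout livers. Its second tested probe had 11.49, 11.82, 11.56 and 11.57 against 12.03, 11.91, 12.06 and 12.04. Both probes of Sdhb had groups that did not overlap. The log2 change was 0.21 on the brightest (SE 0.093; limma adjusted p = 0.352) and 0.40 on the second (SE 0.098; limma adjusted p = 0.0927).

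The promoters of Sdhb and Sdhd are shown because all tested subunits of complex II leaned the same way and both windows carry letters of factors known from respiratory chain promoters. No window of Sdhc is printed, so these windows do not stand for the whole complex. A relation of the letters to the changes was not tested. The windows, from RefSeq on GRCm38.p6, run from 250 bases before to 50 bases after the start of the gene, at chr4:140961021-140961320 (plus strand) for Sdhb and chr9:50603800-50604099 (minus strand) for Sdhd, each printed 5′ to 3′ on the strand of the gene. Capitals in Sdhb mark GCATGCGC (the NRF1 letters) and CCGGAAG (the GABPA letters). Capitals in Sdhd mark CTTCCGG, the GABPA letters on the other strand, and TGACCTT, the reverse complement of AAGGTCA (the ERR letters).
Sdhb: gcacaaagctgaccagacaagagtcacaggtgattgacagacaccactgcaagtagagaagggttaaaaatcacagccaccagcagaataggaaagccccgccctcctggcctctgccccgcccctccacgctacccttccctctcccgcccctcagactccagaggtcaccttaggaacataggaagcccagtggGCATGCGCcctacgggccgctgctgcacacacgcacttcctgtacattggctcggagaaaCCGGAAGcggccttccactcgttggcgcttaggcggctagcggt
Sdhd: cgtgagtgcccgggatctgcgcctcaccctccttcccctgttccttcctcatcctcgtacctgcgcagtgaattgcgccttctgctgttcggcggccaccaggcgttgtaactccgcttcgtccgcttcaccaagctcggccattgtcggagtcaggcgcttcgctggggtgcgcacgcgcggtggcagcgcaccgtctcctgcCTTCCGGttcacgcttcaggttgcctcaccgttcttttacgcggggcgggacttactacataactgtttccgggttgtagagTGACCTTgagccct

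Of the 80 subunit genes 65 had a promoter in the RefSeq table, 70 windows in all, and 6 sets of letters were searched on both strands. GCATGCGC stood in 10 of the 70 windows (14.3%), against 5.20% of the 8519 windows of tested genes and 2.71% of all 32851 windows. CCGGAAG stood in 16 (22.9%, against 17.3% and 8.86%), and AAGATGG, the YY1 letters, in 11 (15.7%, against 7.63% and 6.34%). AAGGTCA stood in 7 (10%, against 3.52% and 4.72%) and TGACGTCA, the CREB letters, in 4 (5.71%, against 2.91% and 1.79%). The E-box CAGCTG, known from genes of muscle, stood in 5 (7.14%, against 14.9% and 16.3%). These letters overlap in none of the windows printed here. A match describes the sequence and shows no binding.

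Complex III, the cytochrome bc1 complex, had 7 of its 9 genes tested. Uqcrfs1, the Rieske iron-sulfur protein, was detected on 2 arrays, and Uqcrq was not tested either. The median log2 change was 0.013, and the 7 values ran from -0.042 to 0.41. Uqcrb and Uqcrc2 were higher at an unadjusted p under 0.05 (limma; 28.6% of the 7, beside 6.14% of all genes). The other 5 genes lay close to 0. With median scaling the median was -0.063. Uqcrb, which takes part in binding ubiquinone, had log2 intensities of 11.57, 11.55, 11.42 and 11.24 in wild type and 11.70, 11.94, 11.90 and 11.90 in knockout livers. The groups did not overlap, and the log2 change of Uqcrb was 0.41 (SE 0.10; 1.33-fold; limma adjusted p = 0.103). Uqcrc2, a core protein of the matrix side, had 13.55, 13.58, 13.26 and 13.28 in wild type and 13.65, 13.78, 13.68 and 13.45 in knockout livers. Bgn knockout replicate 4 lay within the wild type range, and the log2 change was 0.22 (SE 0.0999; limma adjusted p = 0.362). For Uqcrc2 it was 0.13 without the pair of arrays highest in muscle transcripts, wild type replicate 4 and Bgn knockout replicate 2. Uqcr11, a small subunit, had a log2 change of -0.039 (SE 0.070; limma adjusted p = 0.856).

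Cycs encodes somatic cytochrome c, the mobile carrier between complexes III and IV and a trigger of apoptosis when released. Its 2 tested probes were among the dim ones. On the brighter, log2 intensities were 5.94, 6.68, 5.67 and 7.01 in wild type and 6.81, 7.29, 7.65 and 6.95 in knockout livers. Wild type replicate 4 lay above knockout replicates 1 and 4, so the groups overlapped. The log2 change of Cycs was 0.85 (SE 0.30; limma adjusted p = 0.249) on that probe and 0.19 (limma adjusted p = 0.764) on the other, and without background correction it was 0.38 on the first. The Cycs promoter is shown because it holds the NRF1 letters GCATGCGC and the CREB letters TGACGTCA, in capitals. It lies at chr6:50566520-50566819 on the minus strand (RefSeq, GRCm38.p6).
Cycs: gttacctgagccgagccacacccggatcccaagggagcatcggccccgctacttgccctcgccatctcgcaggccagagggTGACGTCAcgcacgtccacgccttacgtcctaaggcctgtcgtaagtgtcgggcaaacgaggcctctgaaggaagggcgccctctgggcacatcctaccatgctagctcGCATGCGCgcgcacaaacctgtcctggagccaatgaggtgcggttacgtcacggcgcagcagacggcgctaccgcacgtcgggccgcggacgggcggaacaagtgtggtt

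Complex IV had 13 of its 18 genes tested, with a median log2 change of 0.066 and 12 of the 13 values above 0. The 12 include Cox8b, detected on 1 wild type and 4 knockout arrays, and Cox7a1. Both are muscle isoforms that were high on arrays with muscle transcripts. At an unadjusted p under 0.05 (limma), Cox7b and Cox7a2 (15.4% of the 13, beside 6.14% of all genes) were higher. At that p 0 genes were lower, beside 7.37% of all. Cox7b, a small accessory subunit encoded on the X chromosome, had log2 intensities of 7.20, 7.60, 7.30 and 7.23 in wild type and 7.72, 8.03, 8.43 and 8.04 in knockout livers. Each knockout array lay above each wild type array. The mean was 7.33 ± 0.18 in wild type and 8.05 ± 0.29 in the knockout (SD, n = 4 each), and the log2 change of Cox7b was 0.72 (SE 0.17; 1.65-fold; limma adjusted p = 0.0848). Its adjusted p ran from 0.0773 to 0.227 when 1 array was left out, and without background correction the change was 0.45. Cox7a2, the isoform of subunit 7a used in liver and most tissues, had 8.74, 8.97, 8.58 and 8.55 in wild type and 8.97, 9.01, 9.21 and 8.97 in knockout livers. Its groups were apart by less than 0.01 between wild type replicate 2 and the lowest knockout arrays, and the log2 change was 0.33 (SE 0.13; limma adjusted p = 0.315).

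The Cox7b promoter is shown for contrast with those above, since it holds none of the 6 sets of letters. It lies at chrX:106015450-106015749 on the plus strand (RefSeq, GRCm38.p6). No match says only that these letters are not in this window.
Cox7b: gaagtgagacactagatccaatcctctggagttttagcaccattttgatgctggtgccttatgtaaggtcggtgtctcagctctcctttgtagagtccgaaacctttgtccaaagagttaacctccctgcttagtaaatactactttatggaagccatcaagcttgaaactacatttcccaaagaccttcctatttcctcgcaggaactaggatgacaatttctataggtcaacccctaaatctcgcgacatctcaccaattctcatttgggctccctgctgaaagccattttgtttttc

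The other ubiquitous subunits of complex IV lay close to 0. Cox6a1, the liver isoform of subunit 6a, had a log2 change of 0.12 (SE 0.071; limma adjusted p = 0.487), and Cox8a, the liver isoform of subunit 8, had 0.061. Cox4i1, the common isoform of subunit 4, was the 1 tested gene of complex IV below 0, at -0.096. Cox6b1 had 0.022 on its brightest probe and 0.21 on a dimmer one (limma adjusted p = 0.918 and 0.332). Cox4i2, known from lung, and Cox6b2, known from testis, were detected on at most 2 arrays and were not tested. Cox7a2l, which links complexes III and IV into supercomplexes and is not itself a subunit, had a log2 change of -0.014 with an SE of 0.30.

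The heart and skeletal muscle isoforms Cox6a2, Cox7a1 and Cox8b were high on single arrays of both genotypes. Cox6a2 had log2 intensities of 4.79, 4.84, 4.91 and 12.08 in wild type and 9.53, 11.90, 4.49 and 4.61 in knockout livers. It was detected on 3 arrays and not tested. Cox8b had 4.84, 4.69, 4.97 and 11.28 against 8.72, 11.39, 5.37 and 5.74. Its log2 change of 1.36 had a 95% interval of -3.72 to 6.43 (limma adjusted p = 0.830), and it was 0.15 without Bgn knockout replicate 2 and 2.96 without wild type replicate 4. Cox7a1, which is also made outside muscle, had 7.83, 7.66, 6.86 and 10.42 against 8.25, 10.68, 7.71 and 7.19 (log2 change 0.27, SE 1.05, limma adjusted p = 0.941). Wild type replicate 4 and Bgn knockout replicate 2 were the highest array of their group for all 3 genes.

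The skeletal muscle marker list moved on the same arrays. Of its 15 genes 14 were on the array, and 1, 3, 3 and 12 were detected on the wild type arrays and 12, 14, 2 and 2 on the knockout arrays. Their summed deposited intensity was 1920, 1990, 2106 and 54435 units in wild type and 19959, 79095, 2040 and 1966 in knockout livers. Acta1, the skeletal muscle actin, had log2 intensities of 4.44, 4.60, 4.77 and 13.37 against 11.76, 13.88, 4.60 and 5.01, which places the same 3 arrays on top. With wild type replicate 4 and Bgn knockout replicate 2 left out, the median log2 change of the subunits was 0.068, with 8 member genes higher at an unadjusted p under 0.05, where 3.93% of all genes were, and 0 lower. Without Bgn knockout replicate 1 as well, it was 0.045, with 45 of 70 subunit genes above 0, and 7 member genes were higher, where 3.30% of all genes were, and 0 lower. The 5 arrays that remain are wild type replicates 1 to 3 and Bgn knockout replicates 3 and 4, which limits the precision. On these arrays, the changes of Ndufb4, Cycs and Cox7b, all read on dim probes, were 0.88, 1.19 and 0.87. Those of Uqcrb, Sdhb, Ndufa6 and Uqcrc2 were 0.38, 0.18, 0.13 and 0.099, smaller than over all 8 arrays.

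**Figure D3:**
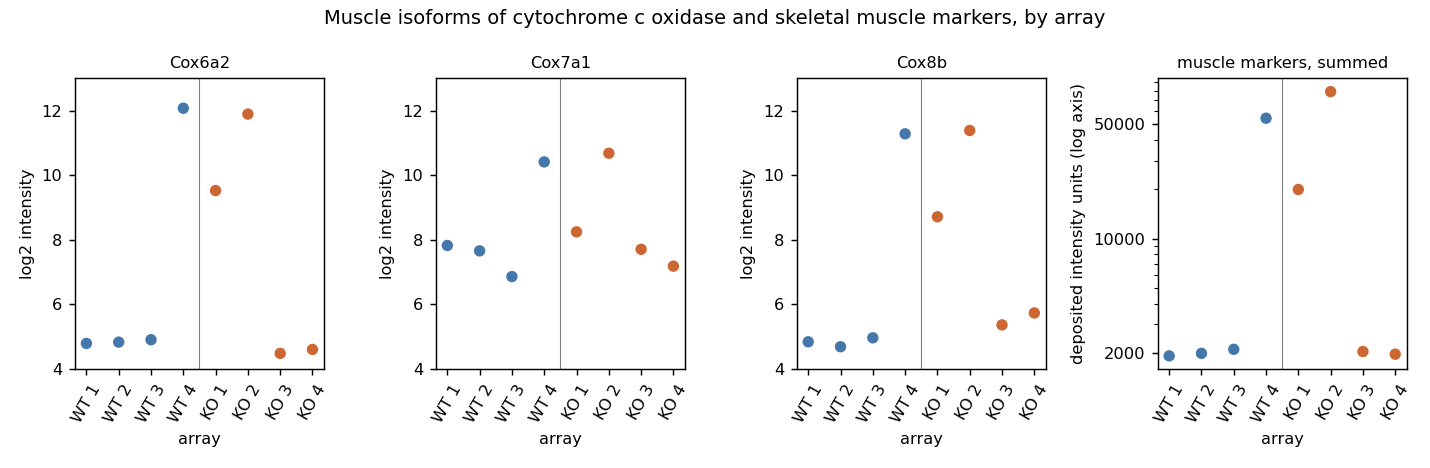
Log2 intensity of Cox6a2, Cox7a1 and Cox8b (first 3 panels) and the summed deposited intensity of the 14 skeletal muscle markers on a log axis (last panel), by array (WT, wild type, blue; KO, Bgn knockout, orange). Wild type replicate 4 and Bgn knockout replicates 1 and 2 stand above the other arrays for Cox6a2, Cox8b and the summed markers, which run from 19959 to 79095 units on these 3 arrays and from 1920 to 2106 on the others.

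The Cox8b promoter is shown because it holds the E-box CAGCTG, in capitals, at 2 places and none of the other letters. It lies at chr7:140900397-140900696 on the minus strand (RefSeq, GRCm38.p6).
Cox8b: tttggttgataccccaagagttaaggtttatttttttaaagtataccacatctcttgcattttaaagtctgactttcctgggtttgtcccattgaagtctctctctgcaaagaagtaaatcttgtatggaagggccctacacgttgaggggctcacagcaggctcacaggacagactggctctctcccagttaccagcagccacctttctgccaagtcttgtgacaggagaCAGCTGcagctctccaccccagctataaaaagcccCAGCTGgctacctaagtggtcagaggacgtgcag

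Complex V, the ATP synthase, had 15 of its 16 genes tested, with a median log2 change of 0.035 and 12 values above 0. Atp5a1 alone (6.67% of the 15, near the 6.14% of all genes) was higher at an unadjusted p under 0.05, and 0 genes were lower. Atp5a1, the alpha subunit of the catalytic head, had log2 intensities of 10.06, 10.21, 10.23 and 10.08 in wild type and 10.80, 10.42, 10.76 and 10.48 in knockout livers. The groups did not overlap. The mean was 10.15 ± 0.088 in wild type and 10.62 ± 0.19 in the knockout (SD, n = 4 each), and the log2 change of Atp5a1 was 0.47 (SE 0.12; 1.39-fold; limma adjusted p = 0.0991). The alpha and beta subunits stand in equal number in the head of the enzyme, and the log2 change of the beta subunit gene Atp5b was 0.0064.

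The stalk that holds the head of the ATP synthase includes the products of Atp5o and Atp5h. Atp5h had log2 intensities of 11.67, 11.77, 11.70 and 11.72 in wild type and 11.87, 11.98, 11.83 and 11.84 in knockout livers, with no overlap, and a log2 change of 0.16 (SE 0.085; limma adjusted p = 0.440). Atp5o had a log2 change of 0.30 (SE 0.16; limma adjusted p = 0.439), and its groups overlapped. Atp5g1, Atp5g2 and Atp5g3, which encode the same mature c subunit of the membrane ring with different import sequences, had log2 changes of -0.020, 0.029 and 0.015. Each of these 3 was smaller than its SE, and the signs changed with the processing.

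The signed change was higher where the probe was dimmer. The 24 subunit genes with the dimmest probes (mean log2 intensity 5.73 to 12.27) had a median log2 change of 0.28, 22 above 0 and 9 higher at an unadjusted p under 0.05. The 22 include the muscle isoforms Cox8b and Cox7a1, which were high on arrays with muscle transcripts. All 7540 genes below the cut between the dim and middle ranges had a median of -0.0043, and 6.19% were higher at that p. These include genes dimmer than any subunit, so they are not matched in signal. The 23 of the middle range (12.32 to 13.40) had a median of 0.041. The 24 with the brightest probes (13.43 to 14.77) had 0.021, against 0.019 over all 220 genes above the upper cut. Within single genes the order was similar: 13 subunit genes had several tested probes, the dimmest probe had the higher signed change in 10 of them, and the medians were 0.20 for the dimmest and 0.042 for the brightest probes. Ndufa5 of complex I had -0.062 on its bright probe and 0.50 on its dim one (limma adjusted p = 0.818 and 0.232). Whether bright probes near the top of the scale, where the highest probe of the array averaged 15.23, understate a change was not tested.

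**Figure D4:**
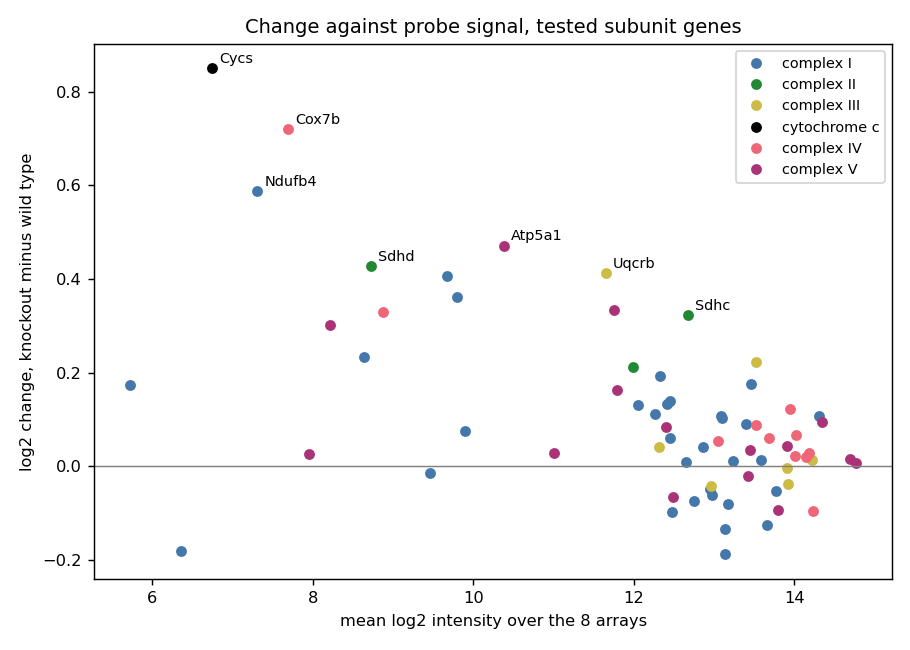
Log2 change, knockout minus wild type, of the tested subunit genes (y axis) against the mean log2 intensity of their brightest tested probe over the 8 arrays (x axis), coloured by complex, with Cox7a1 and Cox8b left out. The points spread upwards at lower signal, where Cycs, Cox7b and Ndufb4 lie, and close in on 0 above 13.43, where the median was 0.021.

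Factors that build the complexes were read from a separate list of genes outside the naming rule. Of 39 listed factors 34 were on the array and 30 were tested, with a median log2 change of 0.093. At an unadjusted p under 0.05, 3 were higher and 2 lower (limma; 6.14% and 7.37% of all genes). One was called in limma, beside 1.2% of all genes (0.802% called lower): Tmem126b, a membrane protein needed to assemble complex I, fell. Its log2 intensities were 9.34, 9.28, 9.57 and 8.98 in wild type and 8.43, 8.37, 8.28 and 8.82 in knockout livers, with all knockout values below the lowest wild type value. Tmem126b had a log2 change of -0.81 (SE 0.16; limma adjusted p = 0.0325). The call was lost in 6 of the 8 fits that left out 1 array, where its adjusted p ran from 0.0153 to 0.133, and without the pair of arrays highest in muscle transcripts (0.0893). It was also lost with plain eBayes (0.0682) and with the replicate number as a block (0.158). Its log2 change ran from -0.93 to -0.72 in the fits without 1 array. Uqcc2, a factor of complex III assembly, had 11.59, 11.63, 11.27 and 11.51 against 11.86, 11.99, 11.97 and 11.73 (log2 change 0.39, SE 0.11, limma adjusted p = 0.129). Coa5, a factor of complex IV assembly, had a log2 change of 0.29 (limma adjusted p = 0.265). Beside Tmem126b, the other factor lower at an unadjusted p under 0.05 was Coa7, named after its values were seen. Its groups did not overlap, and the log2 change of Coa7 was -0.71 (limma adjusted p = 0.271).

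The Tmem126b promoter, of the 1 gene called, holds the YY1 letters AAGATGG and an E-box CAGCTG, in capitals, and none of the other letters. It lies at chr7:90475946-90476245 on the minus strand (RefSeq, GRCm38.p6).
Tmem126b: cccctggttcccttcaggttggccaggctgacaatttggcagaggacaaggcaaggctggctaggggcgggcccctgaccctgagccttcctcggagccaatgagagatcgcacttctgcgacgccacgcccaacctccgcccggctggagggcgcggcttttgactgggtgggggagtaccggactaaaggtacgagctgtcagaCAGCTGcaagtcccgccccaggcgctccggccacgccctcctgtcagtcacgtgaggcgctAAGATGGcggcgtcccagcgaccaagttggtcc

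Regulators of mitochondrial biogenesis were tested for 10 of the 11 genes on the array, and 0 were called (limma, 1 higher and 2 lower at an unadjusted p under 0.05, beside 6.14% and 7.37% of all genes). The coactivators Ppargc1a and Ppargc1b, which raise the transcription of respiratory chain genes in many tissues, both lay below 0. Ppargc1b had log2 intensities of 8.72, 8.76, 8.47 and 8.72 in wild type and 7.79, 7.94, 8.16 and 8.20 in knockout livers, without overlap. Ppargc1b had a log2 change of -0.65 (SE 0.14; limma adjusted p = 0.0545), and with array weights it passed (0.0139). Ppargc1a had 7.48, 6.99, 7.29 and 8.09 against 6.26, 6.33, 6.97 and 7.18, with overlap, and a log2 change of -0.78 (SE 0.27; limma adjusted p = 0.242). Tfb1m, a methyltransferase of the mitochondrial ribosome, had 0.62 (limma adjusted p = 0.279). The subunit median and these 2 coactivators thus had opposite signs, and no relation between them was tested.

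**Figure D5:**
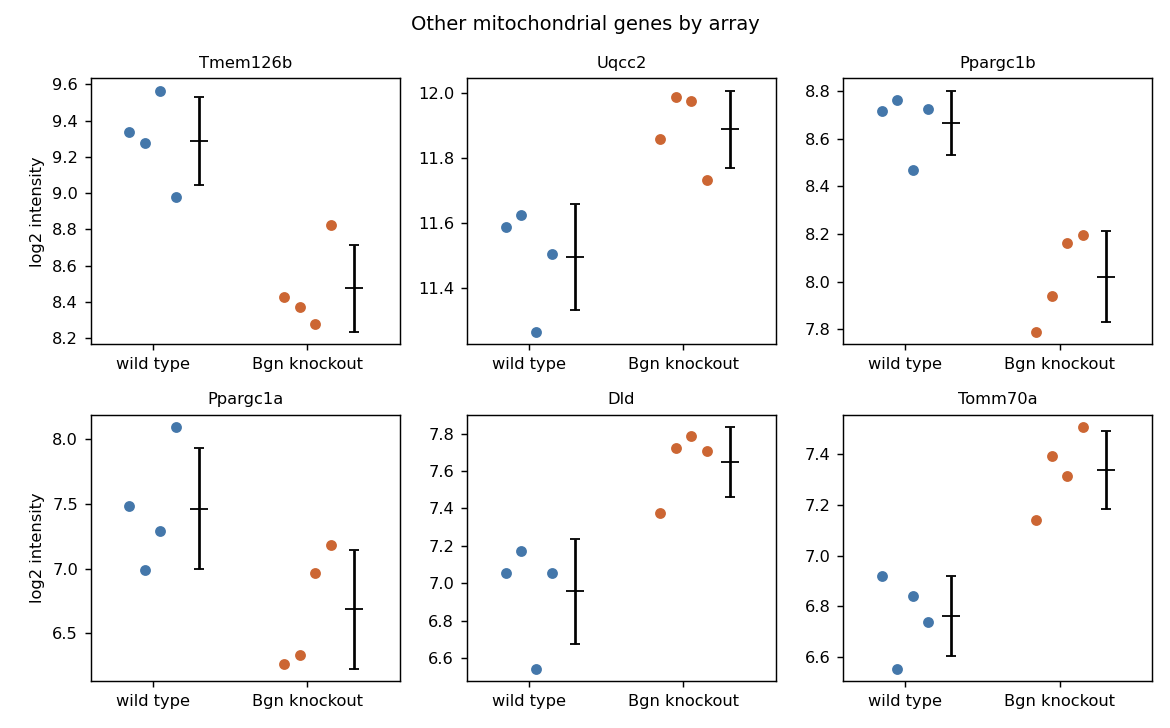
Log2 intensity of 6 mitochondrial genes outside the naming rule on each array (wild type blue, Bgn knockout orange; points within a group are replicates 1 to 4 from left to right), with the mean and SD of each group (black, n = 4). The axes differ between panels and do not start at 0. Tmem126b and Ppargc1b lie lower on every knockout array, Uqcc2, Dld and Tomm70a higher, and Ppargc1a overlaps. Of the 6, Tmem126b alone passed the threshold (limma adjusted p = 0.0325).

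The citric acid cycle, which feeds complexes I and II, had 11 of 12 genes tested, 0 called and 3 higher at an unadjusted p under 0.05 (limma; 6.14% of all genes), with a median log2 change of 0.088. Dld, the lipoamide dehydrogenase shared by several matrix enzymes, had log2 intensities of 7.06, 7.17, 6.54 and 7.05 in wild type and 7.37, 7.72, 7.79 and 7.71 in knockout livers. The groups did not overlap, and the log2 change of Dld was 0.69 (SE 0.18; limma adjusted p = 0.105). Mdh2, the malate dehydrogenase of the matrix, had 0.51 (limma adjusted p = 0.201), with a single knockout array, replicate 4, inside the wild type range. Mdh2 passed without Bgn knockout replicate 4 (limma adjusted p = 0.0217) and with array weights (0.0393). Suclg2, a subunit of the succinyl-CoA ligase, had 0.27 (limma adjusted p = 0.307).

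Genes of the outer membrane and of protein import had 9 of 11 genes tested, 0 called and 1 higher at an unadjusted p under 0.05 (limma; 6.14% of all genes), with a median log2 change of -0.0089. Tomm70a, an import receptor, had log2 intensities of 6.92, 6.55, 6.84 and 6.74 in wild type and 7.14, 7.39, 7.31 and 7.51 in knockout livers, with no overlap (log2 change 0.58, SE 0.16, limma adjusted p = 0.129). The channel Vdac3 had 0.23 and the chaperonin Hspd1 0.19 (limma adjusted p = 0.489 and 0.434). Of a list of partners of the ATP synthase, 3 of 4 genes on the array were tested, the enzyme's inhibitor Atpif1, the phosphate carrier Slc25a3 and the nucleotide carrier Slc25a5. None was called and 0 had an unadjusted p under 0.05 on their brightest probe (limma; log2 changes -0.032, 0.15 and 0.0999).

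Markers of other liver cells were read beside these values. Of the hepatocyte markers 5 of 7 were tested, 0 were called or had an unadjusted p under 0.05 (limma), and their summed deposited intensity ran from 89471 to 94966 units in wild type and from 82904 to 92996 in knockout livers. The 8 tested genes of Kupffer cells and macrophages all lay below 0 on their brightest probes, with a median log2 change of -0.20. Among all genes, 49.5% lay above 0. Of the 8, 0 were called and 2 were lower at an unadjusted p under 0.05 (limma; 7.37% of all genes). The sums of these markers were 4227 to 6654 against 4374 to 6066 units. Of the lists for adipocyte, erythroid and endothelial and stellate cell markers, 0 genes were called (limma). On the brightest probes, 1 endothelial and stellate gene was lower at an unadjusted p under 0.05 (limma; 7.37% of all genes). At that p 0 other genes of these lists differed. The lower gene was Lyve1, at a log2 change of -1.0 (limma adjusted p = 0.104). Dcn had -0.043 on its brightest probe and 0.40 on a dimmer one (limma adjusted p = 0.888 and 0.272). The 3 erythroid genes all lay below 0, with a median of -0.45, and the groups of Hba-a1 did not overlap (-0.53, limma adjusted p = 0.377). The part of these markers in the subunit values was not tested.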

How the data were processed

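Liver RNA of 8 mice, 4 wild type and 4 Bgn knockout, was read on Illumina bead arrays. Per the file headers, the authors deposited for every array the mean bead intensity of each probe. The deposited intensity values are linear and neither background-subtracted nor normalized. Beside them stands the authors' detection p-value, whose making no source used here describes. A further deposited table holds intensity normalized by the authors in an unstated way, with column medians of 155.9 to 156.6. R 2.15.0 and lumi 2.10.0 appear in the submitters' processing notes. GEO's platform annotation gave 23978 probes 1 gene and 0 probes several, and left 1719 unnamed. RefSeq (GRCm38.p6) held the Entrez number of 23962.

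With limma 3.58.1 (R 4.3.3), the unnormalized intensities underwent normexp background correction from the detection p-values (offset 16), then quantile normalization and a log2 transform. Probes with a detection p under 0.05 on at least 4 arrays were tested (11494 probes, 8105 genes) with lmFit and eBayes (trend, robust), without covariates. The Benjamini-Hochberg adjustment ran over all of them. Genes are given by their brightest tested probe over all arrays. The fit was tested on simulated data. Python 3.11.15 and matplotlib 3.10.9 made the figures.

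Named genes are, per complex, the 3 with the smallest p, Cycs, the related isoforms of complexes IV and V, member genes whose probes differ in group overlap, and up to 3 from each other pathway list with every one past the threshold. The members and lists were chosen with earlier results of these data known. Alternatives were cyclic loess or median scaling, an offset of 50 or no background correction, the deposited normalized intensities, a stricter filter or none, array weights, plain eBayes, a replicate block, and leaving out arrays singly or those with muscle transcripts. The labels give no pairing of the arrays, and those with the same replicate number did not deviate together. No chip is named in the labels or columns, so chip was not fitted. Whether mice shared litters is not given, so a difference between litters that followed genotype could not be told apart from it. The limma p-values set the genotype difference against the spread within the groups, drawn by eBayes toward a trend over all tested probes.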

Additional observations from a re-analysis of the deposited data

Results flagged for a closer look

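A group of 4 arrays was looked at again where its highest or lowest array stood apart from the other 3 by more of the group's range than Dixon's 95% critical value for 4 samples. Of 70 groups of member values 4 did so, where chance gives about 1 in 20, or 3.5 of 70. Cox6a2 stood at 12.08 on wild type replicate 4, with the other wild type arrays at 4.79 to 4.91. Cox8b stood at 11.28 on the same array, with the others at 4.69 to 4.97, and this array was also the wild type array with the most skeletal muscle markers detected (12 of 14). Cox7a2 stood at 9.21 on Bgn knockout replicate 3, with the others at 8.97 to 9.01. Ndufa6 stood at 13.51 on Bgn knockout replicate 4, with the other 3 at 13.57.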

How the results depend on the processing

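No member probe passed the threshold in any of the 20 alternative settings. The median log2 change of the subunit genes ran from 0.039 (cyclic loess) to 0.080 and kept its sign in all 20, and the medians of complexes I, II, IV and V kept theirs. The median log2 change of complex III was -0.024 with cyclic loess, -0.063 with median scaling, 0.043 with array weights and 0.062 when wild type replicate 4 and Bgn knockout replicate 2, the arrays highest in muscle transcripts, were left out. In that last setting the median log2 change of complex I was 0.017. The median log2 change of complex IV was 0.10 with the authors' normalized values. Member genes lower at unadjusted p under 0.05 numbered 1 with array weights, 1 with cyclic loess and 2 with median scaling. Member genes higher at unadjusted p under 0.05 numbered 7 when Bgn knockout replicate 1 was left out as well. Leaving out 1 array at a time gave 7 to 12 member genes higher at unadjusted p under 0.05, with 7 without wild type replicate 3, and 0 to 2 member genes lower at unadjusted p under 0.05. It gave a median log2 change of complex I of 0.031 to 0.10, of complex II of 0.26 to 0.39, of complex III of -0.016 to 0.064, of complex IV of 0.049 to 0.090 and of complex V of 0.022 to 0.064. The causes were not tested.

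Subunit genes above 0 numbered 53 of 71, but 42 with median scaling and 47 with cyclic loess, so signs of single subunits close to 0 changed. Of the members named by the rule given above, 7 changed sign, none of them past the threshold. The signs of other members in the text, such as Atp5b, Ndufa5, Ndufa7 and Ndufb11, were not followed. With array weights Cox7a2l was 0.067, Cox6b1 -0.0054 and Atp5g2 -0.055. With the authors' normalized values Atp5g1 was 0.0098 and Atp5g3 -0.035. With cyclic loess Cox6b1 was -0.0057 and Atp5g3 -0.084. With median scaling Cox7a2l was 0.034, Cox6b1 -0.047 and Atp5g3 -0.15. With those 2 arrays left out, Uqcr11 was 0.027, Cox7a2l 0.0068, Cox6b1 -0.0052, Atp5g1 0.010 and Atp5g3 0.081. Without Bgn knockout replicate 1 as well, Uqcr11 was 0.0067, Cox7a1 -0.0044, Cox6b1 -0.0041 and Atp5g1 0.016. Over the fits without 1 array, Uqcr11 ran from -0.066 to 0.0015, Cox7a1 from -0.48 to 1.01, Cox7a2l from -0.24 to 0.22, Cox6b1 from -0.0045 to 0.047, Atp5g1 from -0.11 to 0.027, Atp5g2 from -0.037 to 0.085 and Atp5g3 from -0.011 to 0.058.

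Arrays with the same replicate number did not deviate together (correlations 0.0571, -0.0594, -0.298 and -0.123), and those with different numbers had -0.226 to 0.47. The labels do not say whether mice were paired, and so few correlations cannot decide it. With the replicate number as a block, 64 probes were called in place of 127, 0 of them members, and 10 member genes were higher and 0 lower at unadjusted p under 0.05. With the block Tmem126b had an adjusted p of 0.158, and with plain eBayes 0.0682. Dim probes, where the larger changes lay, depend most on the background correction. Probes near background carry little signal, and 16 member probes could not be tested.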
